A study of Mus musculus with 4 samples.

Results

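MicroRNA genes, small nucleolar RNA (snoRNA) genes and snoRNA host genes were followed in alveolar macrophages with and without a conditional deletion of Pparg. The set held every probe set of the deposited table whose single platform symbol began with Mir and a digit or with Mirlet, Snora, Snord or Snhg, with 1 probe set a gene, the one with the highest mean over the 4 arrays. The rule used names and overall signal and no difference between genotypes. It gave 368 of the 18782 genes measured, made up of 306 microRNA genes, 56 snoRNA genes (26 Snora and 30 Snord) and 6 Snhg genes. The microRNA class was taken by symbol, so it also holds host RNAs such as Mir17hg, Mir99ahg and Mir100hg.

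Alveolar macrophages live in the airspaces of the lung, where they clear surfactant and particles, and Pparg encodes the lipid-sensing nuclear receptor PPARγ. The KO group was adult CD11cCre/PPARg fl/fl mice, whose cells the labels describe as arrested and immature. The WT group was adult PPARg fl/fl mice without Cre, whose cells are labelled mature. Both groups carried the floxed alleles and a C57BL/6 background, and each had 2 arrays, each of them sorted cells pooled from 2 mice. The Cre was driven by the promoter of CD11c, which is active in alveolar macrophages and also in dendritic cells, and no group with Cre alone was analysed here. Viable CD45+ CD11c-high, autofluorescent, Siglec-F+ cells were sorted, CD11b-high from KO lungs and CD11b-low from WT lungs, so the gate differed along with the genotype and the effects of the 2 cannot be told apart.

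MicroRNAs are cut from longer primary transcripts by Drosha and its partner Dgcr8, exported as hairpins by Xpo5, cut again by Dicer and loaded onto Argonaute proteins, where the seed, bases 2 to 8 of the mature RNA, chooses the target messages. Many microRNA genes lie in clusters that are transcribed together, or inside introns of protein-coding hosts. Box C/D snoRNAs (Snord) guide ribose methylation of ribosomal RNA, box H/ACA snoRNAs (Snora) guide its pseudouridylation, and a few take part in cutting the ribosomal precursor. Most are released from introns of host genes, some of which (Snhg, Gas5) encode no conserved protein and are read mainly as carriers. The probes of this array measure RNA of the annotated gene in total RNA, so a microRNA probe set does not separate primary transcript, hairpin and mature RNA.

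The mature sequences of some of the microRNA genes that changed, and of some family members with the same seed, are printed here because the seed sets which genes are related. The sequence of miR-23b-3p was not in the reference used. Of the 306 microRNA genes, 277 had a mature sequence in the RefSeq table of GRCm38.p6. Capitals mark the seed, and each line runs 5′ to 3′.
miR-27a-3p: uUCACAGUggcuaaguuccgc
miR-27b-3p: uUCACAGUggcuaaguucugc
miR-24-3p: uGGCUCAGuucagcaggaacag
miR-221-3p: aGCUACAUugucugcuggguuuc
miR-222-3p: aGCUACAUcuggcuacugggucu
miR-181b-5p: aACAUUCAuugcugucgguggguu
miR-181a-5p: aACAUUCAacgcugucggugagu
miR-342-3p: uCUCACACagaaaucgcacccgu
miR-34a-5p: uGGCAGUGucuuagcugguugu
miR-449a-5p: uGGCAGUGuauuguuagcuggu
miR-192-5p: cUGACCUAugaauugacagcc
miR-30e-5p: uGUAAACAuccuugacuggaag

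The arrays separated by genotype over the set as they did over all genes. Over all genes the KO pair had r = 0.996 and the WT pair r = 0.995, and a KO array against a WT array gave 0.967 to 0.975. Over the 368 members these values were 0.992, 0.990 and 0.974 to 0.980. Pparg itself measured 9.59 and 9.73 in KO and 9.69 and 9.75 in WT on the log2 scale. The position of its probes with respect to the floxed exons is unknown, so the value says nothing of the deletion. Of 12 macrophage markers, 11 were measured and all 11 had group means above the array median in both genotypes. In KO 0 were higher and 4 lower (Siglecf, which is part of the gate, Fcgr1, Mertk and Mrc1). Marco measured 3.04, below that median, and 3.37 in KO and 7.22 and 4.43 in WT, and did not pass (limma adjusted p = 0.0897). The summed linear signal of the 8 epithelial markers was 274 and 291 in the KO arrays and 331 and 213 in the WT arrays. Ager and Krt18 among them fell in KO. Scgb1a1 measured 6.48 and 6.63 in KO and 6.89 and 4.26 in WT, so the gap between the WT sums lies mostly in this gene. Both KO arrays lay above both WT arrays for 1 of the 8 markers and below them for 3. The summed linear signal of the 7 measured granulocyte markers was 134 and 121 in KO and 172 and 225 in WT. S100a8 was higher and Csf3r lower in KO. Most of each WT sum came from Csf3r, at 7.08 and 7.57 in WT and 5.69 and 5.87 in KO, so the sum mainly follows this 1 gene. Both KO arrays lay above both WT arrays for 3 of the 7 markers and below them for 1. Of the endothelial, lymphocyte, fibroblast and erythroid markers 0 passed limma's adjusted test, with 1 endothelial gene at an unadjusted p under 0.05 and most of them below the array median. The part of these other cells in the microRNA and snoRNA results was not tested. In sorted bulk cells, fewer cells of a type and less RNA per cell cannot be told apart.

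Few members of the set differed between the genotypes. At an adjusted p under 0.05 (limma, Benjamini-Hochberg over all 18782 genes), 18 of 368 members were called (4.89%), 9 higher and 9 lower in KO, beside 14.3% of all genes. Among all genes 7.41% were higher and 6.86% lower. The microRNA genes had 6 higher and 6 lower (3.92%), with a median difference of 0.005 in log2 signal, beside a median of -0.015 over all genes. The snoRNA genes had 2 higher and 3 lower (8.93%), all 5 of them Snord (5 of 30, 16.7%), while 0 of 26 Snora genes passed limma's adjusted test and 4 had an unadjusted p under 0.05. Of the 6 Snhg genes, 1 was higher.

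The classes differed in how bright they were. The array median was 3.137, and 240 of 306 microRNA genes (78.4%) had a mean below it, against 46.3% of all genes, 6 of 56 snoRNA genes (10.7%) and 0 of 6 Snhg genes. Over all genes, 24.6% were called at or above the array median and 2.32% below it. At or above the median 9 of 66 microRNA genes (13.6%) and 5 of 50 snoRNA genes (10%) were called, and below it 3 of 240 microRNA genes (1.25%). The KO arrays lay both above or both below both WT arrays for 39.2% of microRNA genes, 60.7% of snoRNA genes and 55.3% of all genes. A difference of at least 1 in log2 signal was found in 6 members (1.63%), beside 5.33% of all genes. A low signal on this array may be the array's floor, and near it differences are compressed.

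**Figure D1:**
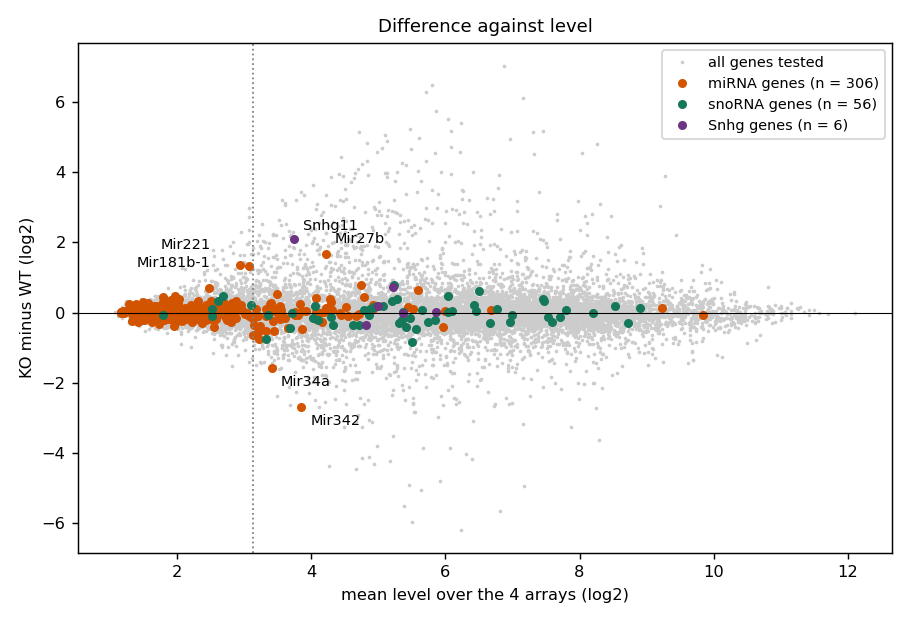
Difference between KO and WT (y axis, log2 signal) against the mean log2 signal over the 4 arrays (x axis) for the 368 members, coloured by class. Grey points are all genes tested. Most microRNA genes lie left of the array median of 3.137, where few were called.

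The class medians moved little by array. For microRNA genes the median log2 signal was 2.15 and 2.10 in the KO arrays and 2.10 and 2.11 in the WT arrays. For snoRNA genes it was 5.29 and 5.35 in KO and 5.54 and 5.40 in WT, and for Snhg genes 5.31 and 5.16 in KO and 5.02 and 5.07 in WT. No test was made of these medians.

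**Figure D2:**
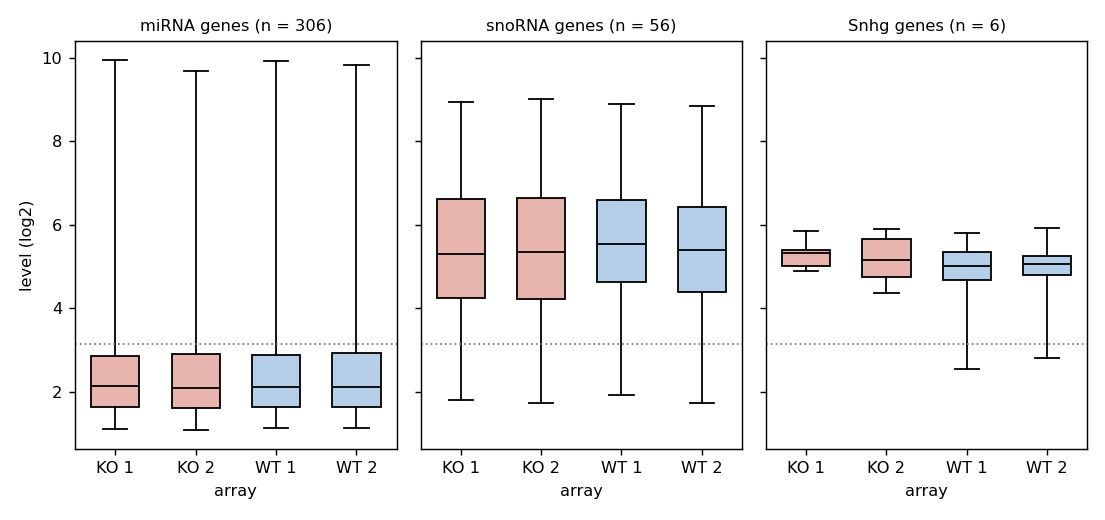
Log2 signal (y axis) of the members of each class in each array (x axis), KO left of WT. Boxes span the quartiles with the median as a line, whiskers reach the lowest and highest member, and the dotted line is the array median of 3.137, which lies above the microRNA boxes and below the others.

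The cluster that holds Mir23b, Mir27b and Mir24-1, on chromosome 13 inside the aminopeptidase gene Aopep, rose in KO. Its 3 hairpins lie at chr13:63300484-63300557, chr13:63300712-63300784 and chr13:63301208-63301275 on the plus strand of GRCm38.p6, the build of all hairpin positions given here, which are on the plus strand unless stated. Mir27b measured 5.16 and 4.97 in KO, against 3.47 and 3.30 in WT, a difference of 1.68 ± 0.12 in log2 signal (SE, n = 2 arrays each; limma adjusted p = 0.000503). Mir23b measured 5.02 and 5.25 in KO and 4.56 and 4.16 in WT, a difference of 0.78 ± 0.16 (limma adjusted p = 0.0243). For both genes the KO arrays lay above the WT arrays without overlap. Mir24-1, whose 4 values all lay below the array median, measured 2.98 and 2.69 in KO and 2.32 and 1.92 in WT, a difference of 0.71 ± 0.17 (limma adjusted p = 0.0388). Aopep rose too, at 4.99 and 5.26 in KO and 4.45 and 4.36 in WT, a difference of 0.72 ± 0.12 (limma adjusted p = 0.0126). Mir27b kept its call in every alternative. Without KO replicate 1, KO replicate 2 or WT replicate 2 the adjusted p of Mir23b was 0.0739, 0.141 and 0.0627 and that of Mir24-1 was 0.194, 0.0801 and 0.111, and Aopep had 0.0655 without KO replicate 2.

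The paralogous cluster on chromosome 8 leaned the same way, with 1 of its 3 genes past the test. Mir27a measured 5.72 and 6.14 in KO, against 5.27 and 5.27 in WT, a difference of 0.66 ± 0.15 (limma adjusted p = 0.0366). Mir23a differed by 0.44 ± 0.13 (limma adjusted p = 0.0828) and Mir24-2 by 0.29 ± 0.10 (limma adjusted p = 0.11). In each the 2 KO arrays lay above both WT arrays, beside 39.2% of microRNA genes without overlap in either direction. Mir27a lost its call without KO replicate 2, WT replicate 1 or WT replicate 2, with adjusted p of 0.114, 0.110 and 0.0929. The mature miR-27a-3p and miR-27b-3p printed above share 1 seed and differ by 1 base of 21, C19U counted from the 5′ end with miR-27a first. The hairpins share runs of 20 bases (Mir27a with Mir27b, and Mir23a with Mir23b) and of 28 bases (Mir24-1 with Mir24-2), so the probe sets of a paralogous pair could share signal, which was not tested. In other cells miR-27 is known to bind the Pparg message. Of the 7 genes on a list of microRNAs described to target Pparg, 6 were measured. Of these, 2 were higher in KO, Mir27a and Mir27b (33.3%, beside 3.92% of microRNA genes and 14.3% of all genes). The list was chosen with earlier results of these data known and these 2 genes are paralogs, so the share does not test an enrichment. Mir130a, Mir130b, Mir301 and Mir301b, which all lay below the array median, differed by 0.12, 0.02, -0.11 and 0.22 and did not pass.

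Mir221 and Mir181b-1, which are known from blood cell development, also rose, both from WT levels below the array median. Mir221, at chrX:19146294-19146388 on the minus strand, measured 3.85 and 3.40 in KO, against 2.43 and 2.11 in WT, a difference of 1.36 ± 0.18 (limma adjusted p = 0.00529). Its cluster partner Mir222, with the same seed, measured 1.96 and 2.48 in KO and 1.83 and 1.64 in WT and did not pass (limma adjusted p = 0.155). Mir181b-1, at chr1:137966639-137966718, measured 3.88 and 3.60 in KO, against 2.17 and 2.64 in WT, a difference of 1.34 ± 0.18 (limma adjusted p = 0.00517), with no overlap between the groups. Its neighbour Mir181a-1 differed by 0.13 ± 0.13 (limma adjusted p = 0.623). Of the 6 Mir181 genes that share the seed, 1 was called, and Mir181a-2, Mir181b-2, Mir181c and Mir181d differed by -0.02, -0.16, 0.05 and 0.24 without passing.

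**Figure D3:**
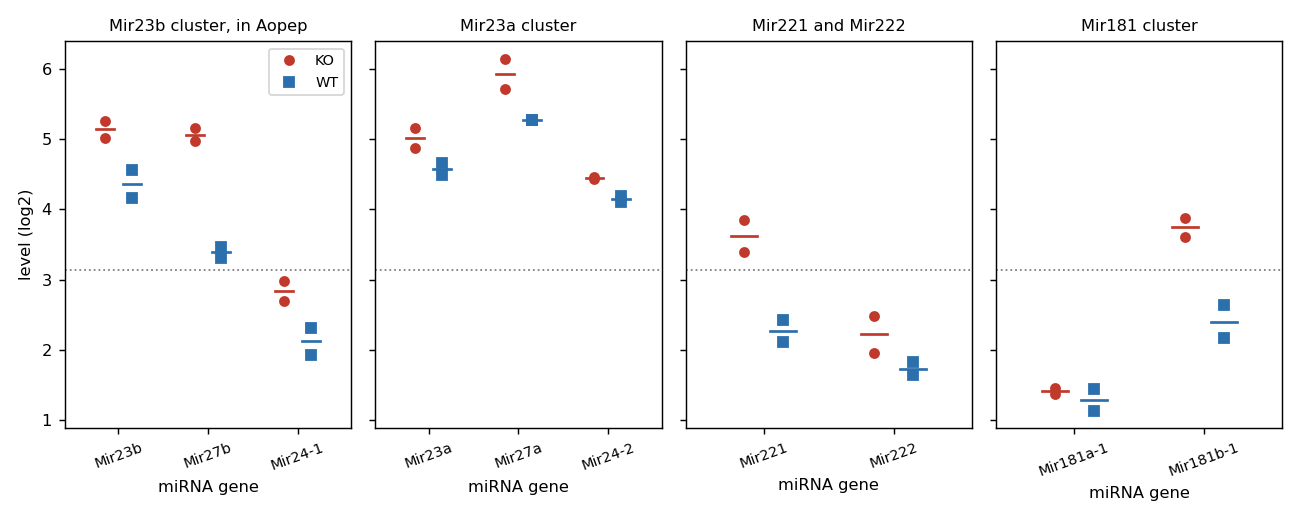
Log2 signal (y axis) in each KO array (circles) and each WT array (squares) for the genes of 4 microRNA clusters (x axis), with the group means as bars and the array median as a dotted line. Both KO points lie above both WT points in all 10 genes except Mir181a-1. Each of these clusters holds a called gene, and 39.2% of microRNA genes and 55.3% of all genes showed no overlap in either direction.

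Mir342 had the largest decrease of the set. It measured 2.24 and 2.77 in KO, against 5.44 and 4.98 in WT, a difference of -2.70 ± 0.22 (limma adjusted p = 0.000826). Both KO values lay below the array median. The gene, at chr12:108658620-108658718, lies inside Evl, which encodes an actin-regulating Ena/VASP-like protein. Evl measured 7.43 and 7.54 in KO, against 9.05 and 9.07 in WT, a difference of -1.57 ± 0.10 (limma adjusted p = 0.000322). The KO arrays lay below the WT arrays for both genes.

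Mir34a, a microRNA gene that p53 is known to induce, fell. It lies at chr4:150068454-150068555 and measured 2.65 and 2.59 in KO, against 3.99 and 4.44 in WT, a difference of -1.59 ± 0.16 (limma adjusted p = 0.00166). Of the 4 genes with its seed in the RefSeq table, Mir34a was the 1 called, and Mir34b, Mir449a and Mir449c differed by -0.12, 0.26 and 0.04. Mir34c, which that table pairs with Mir34b through the seed of the other arm, differed by -0.03. Mir192, another p53-linked gene, at chr19:6264844-6264932, measured 2.89 and 2.81 in KO, against 3.56 and 3.63 in WT, a difference of -0.74 ± 0.10 (limma adjusted p = 0.00473). Its cluster partner Mir194-2 measured 2.91 and 3.03 in KO and 3.43 and 3.22 in WT and did not pass (limma adjusted p = 0.103), and Mir215, which shares the miR-192-5p seed, differed by -0.06.

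The 3 smaller decreases rested on close values. Mir30e measured 2.66 and 2.99 in KO, against 3.46 and 3.46 in WT, a difference of -0.64 ± 0.13 (limma adjusted p = 0.0256). Its cluster partner Mir30c-1 differed by -0.06 and its host Nfyc by -0.38 ± 0.11 (limma adjusted p = 0.0684), neither past the test. The other genes with its seed in the RefSeq table, Mir30a, Mir30c-2 and Mir384, differed by 0.03, 0.09 and -0.01. Mir30b and Mir30d, of the same gene name but not listed with that seed there, differed by -0.03 and -0.10. None of these passed. Mir339 measured 2.96 and 2.92 in KO and 3.61 and 3.36 in WT, a difference of -0.55 ± 0.12 (limma adjusted p = 0.0286), and its host 3110082I17Rik fell by 0.43 ± 0.10 on the log2 scale (limma adjusted p = 0.0342). Mir365-2 measured 3.39 and 3.47 in KO and 3.88 and 3.87 in WT, a difference of -0.45 ± 0.10 (limma adjusted p = 0.0286). Mir365-1, which shares its seed, differed by 0.08 and did not pass. Without KO replicate 1, WT replicate 1 or WT replicate 2 the adjusted p of Mir30e was 0.103, 0.0874 and 0.0705. Mir339 had 0.120, 0.140 and 0.115 without KO replicate 1, KO replicate 2 or WT replicate 1, and 3110082I17Rik and Mir365-2 lost their calls without any 1 of the 4 arrays, at 0.0648 to 0.151 and 0.0866 to 0.142.

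**Figure D4:**
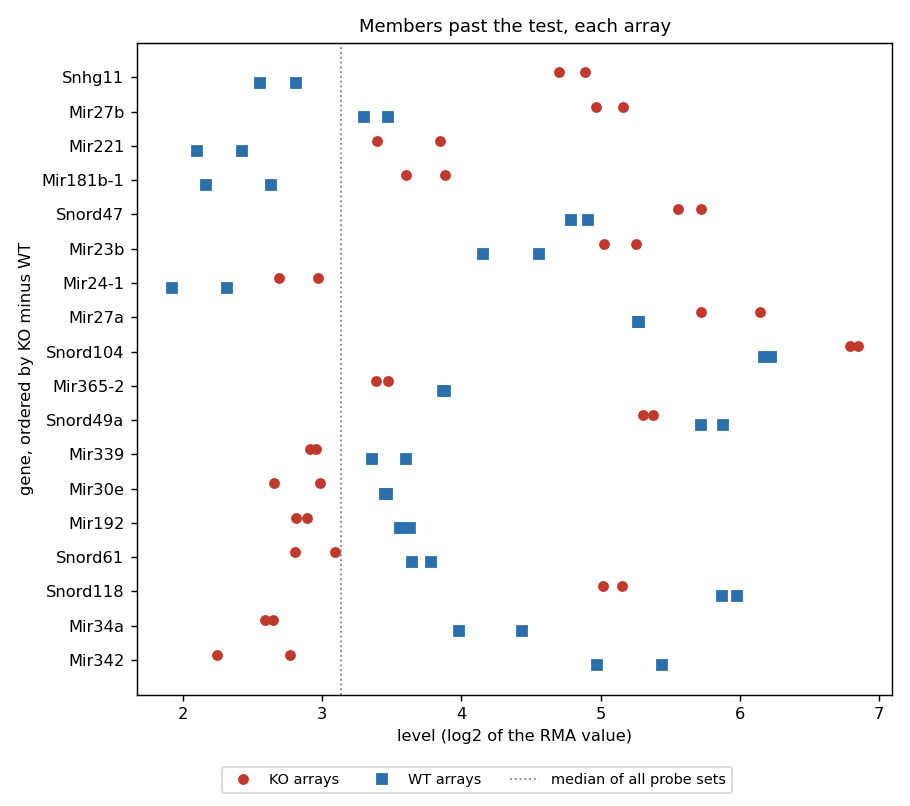
Log2 signal (x axis) of the 18 called members (rows, ordered by KO minus WT) in each KO array (circles) and each WT array (squares), with the array median as a dotted line. The KO and WT arrays do not overlap for any of them, and the widest gaps are those of Mir342, Snhg11, Mir27b and Mir34a. Over all genes 55.3% showed no overlap in either direction.

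Neighbouring microRNA genes formed 43 clusters with 138 members, of which 6 held a called member and 1, that of Mir27b, held more than 1. On a list of 55 microRNA genes described in myeloid cells, 38 were measured, with 2 higher (Mir221 and Mir181b-1) and 4 lower (Mir342, Mir34a, Mir30e and Mir339). That is 6 of 38 (15.8%), beside 3.92% of microRNA genes and 14.3% of all genes, and 27 of the 38 lay below the array median. The list was chosen with earlier results of these data known, so the share is only a description. Of 18 measured genes of the growth-related clusters such as Mir17, 0 passed limma's adjusted test and 0 had an unadjusted p under 0.05. The brightest of them, Mir15a, measured 5.83 and 6.21 in KO and 5.77 and 6.16 in WT. The 11 let-7 genes also had 0 and 0, with a median difference of -0.12. The chromosome 12 cluster from Mir379 to Mir369 held 29 measured genes, 27 of them below the array median, with differences of -0.25 to 0.16 and 0 past either limit. Of 26 measured microRNA genes known from other tissues, 0 passed limma's adjusted test and 2 had an unadjusted p under 0.05, and the brightest, Mir375 and Mir143, differed by 0.09 and 0.08. The 3 brightest microRNA genes did not pass. Mir703 measured 9.95 and 9.67 in KO and 9.92 and 9.82 in WT, Mir692-1 measured 9.25 and 9.36 in KO and 9.19 and 9.13 in WT, and Mir7-1, inside Hnrnpk, measured 6.74 and 6.71 in KO and 6.76 and 6.53 in WT. Mir142, a gene typical of blood cells, measured 4.89 and 5.19 in KO and 4.78 and 4.85 in WT and did not pass.

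MicroRNA genes inside a host were set beside that host. Of 267 microRNA genes with a strand in the tables, 121 lay inside a named gene on the same strand and 84 inside exactly 1 measured gene, over 68 hosts. Across these 84 pairs the differences of gene and host had Pearson's r = 0.314 and Spearman's rho = 0.324, and r = 0.457 and rho = 0.642 over the 18 pairs at or above the array median. These are descriptions: all points come from the same 4 arrays and pairs of 1 host are not independent. Of the 68 hosts 10 were called (14.7%, beside 14.3% of all genes), and in them lay 18 members. Of these, 14 had the sign of their host, 5 were called the same way as the host, 13 did not pass, and 11 lay below the array median. The sign count includes members that differed by almost nothing, such as Mir448 (-0.01) and Mir93 (-0.02). The called members among the 18 are described above with Evl, Aopep and 3110082I17Rik. The pairs that follow are among the 13 and were chosen after their values were seen. Mcm7, a subunit of the replicative helicase, measured 5.99 and 5.82 in KO, against 7.38 and 7.39 in WT, a difference of -1.48 ± 0.10 (limma adjusted p = 0.000515), while Mir25, Mir93 and Mir106b inside it differed by -0.17, -0.02 and -0.09 and did not pass. Pde2a, which encodes a phosphodiesterase, measured 6.34 and 5.80 in KO and 2.79 and 2.99 in WT, a difference of 3.18 ± 0.19 (limma adjusted p = 0.000268), while Mir139 inside it differed by -0.01. Htr2c, a serotonin receptor gene, measured 2.44 and 3.12 in KO and 7.26 and 6.94 in WT, a difference of -4.32 ± 0.24 (limma adjusted p = 0.000196), and Mir448 inside it differed by -0.01. The means of Mir448 and Mir93 lay below the array median, and those of Mir139, Mir25 and Mir106b above it.

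**Figure D5:**
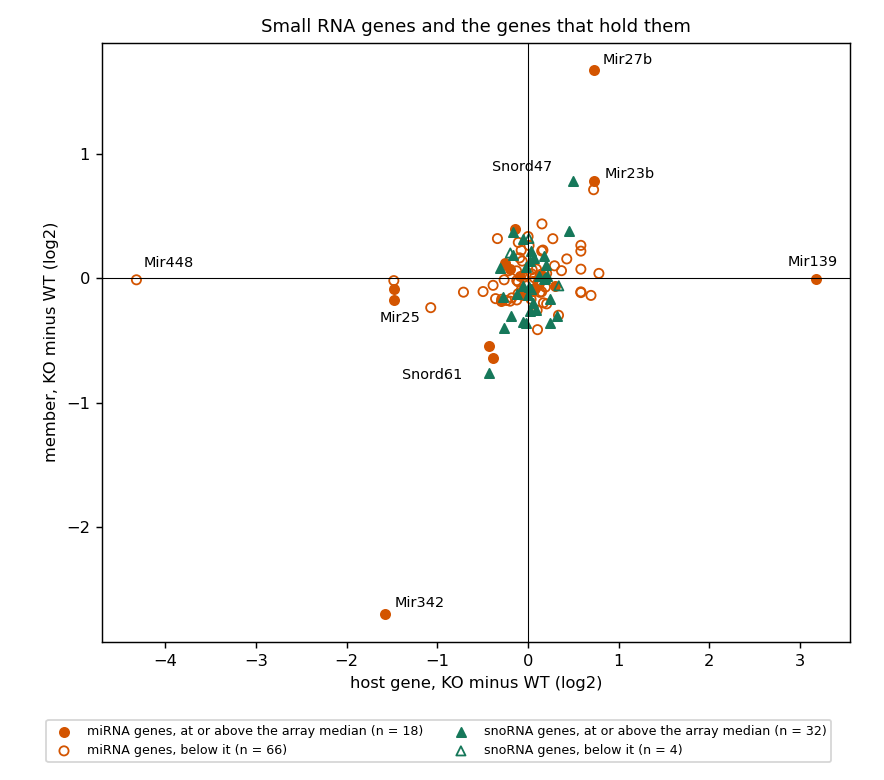
Difference between KO and WT of each microRNA or snoRNA gene (y axis, log2 signal) against that of the measured gene it lies in (x axis), by class, with open symbols for members below the array median. Mir342 with Evl and Mir27b with Aopep lie on the side of their hosts, and Mir139, Mir448 and the Mir25 cluster lie near 0 beside hosts that changed.

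The snoRNA genes that passed were all box C/D. Snord47, which lies in an intron of Gas5, measured 5.72 and 5.55 in KO, against 4.79 and 4.91 in WT, a difference of 0.79 ± 0.11 (limma adjusted p = 0.00591). Gas5, a non-coding host that the symbol rule leaves out, measured 6.99 and 7.08 in KO and 6.45 and 6.62 in WT, a difference of 0.50 ± 0.11 (limma adjusted p = 0.0291). Snord104 measured 6.79 and 6.85 in KO, against 6.22 and 6.17 in WT, a difference of 0.63 ± 0.10 (limma adjusted p = 0.00833). Gas5 had adjusted p of 0.103, 0.147 and 0.130 without KO replicate 1, KO replicate 2 or WT replicate 1, and Snord104 had 0.0594 without KO replicate 2.

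Snord118, the U8 RNA, fell. In frog oocytes U8 is known to be needed for cutting the precursor of the large ribosomal subunit RNAs. It measured 5.16 and 5.02 in KO, against 5.98 and 5.87 in WT, a difference of -0.84 ± 0.11 (limma adjusted p = 0.00400), and no gene in the tables spans it. Snord61, within Rbmx, measured 2.81 and 3.09 in KO and 3.65 and 3.78 in WT, a difference of -0.76 ± 0.13 (limma adjusted p = 0.0122), and had 0.0664 without KO replicate 1. Snord49a measured 5.31 and 5.37 in KO and 5.72 and 5.88 in WT, a difference of -0.46 ± 0.11 (limma adjusted p = 0.0354), and lost its call without any 1 of the 4 arrays, at 0.0600 to 0.163. Snord49b, which lies in the same gene as Snord49a, 2410006H16Rik, measured 7.77 and 7.89 in KO and 7.69 and 7.84 in WT and did not pass. Rbmx differed by -0.43 ± 0.14 and did not pass (limma adjusted p = 0.109). The tables give no strand for snoRNA genes, so their hosts were found by span alone. Of 36 snoRNA genes inside exactly 1 measured gene, 1 had a called host, Gas5. The brightest snoRNA genes did not pass: Snord57, inside Nop56, measured 8.94 and 9.003 in KO and 8.81 and 8.85 in WT, and Snora52, inside Rplp2, 8.58 and 8.56 in KO and 8.90 and 8.85 in WT (limma adjusted p = 0.0944). Snord82, inside Ncl, measured 8.47 and 8.77 in KO and 8.58 and 8.29 in WT, which overlap. The hosts Hnrnpk, Nop56, Rplp2 and Ncl differed by -0.20, 0.02, -0.18 and -0.17 and did not pass.

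Snhg11 had the largest increase of the set. It measured 4.89 and 4.70 in KO, against 2.56 and 2.82 in WT, a difference of 2.11 ± 0.13 (limma adjusted p = 0.000303). A second probe set of Snhg11 measured 3.11 and 3.15 in KO and 2.77 and 2.71 in WT, a difference of 0.39 that did not pass over all probe sets (limma adjusted p = 0.0571), so the size of the increase differed between the probe sets. Snhg15 measured 5.43 and 5.74 in KO and 4.59 and 5.10 in WT, a difference of 0.74 ± 0.19 (limma adjusted p = 0.0561), and had 0.0139 without WT replicate 2. Snhg5, Snhg16, Snhg17 and Snhg20 differed by 0.20, -0.34, 0.01 and -0.01 and did not pass.

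Of 29 symbols listed for the microRNA machinery, 27 were measured, with 2 higher and 1 lower in KO and a median difference of -0.08. That share (11.1%) was near the 14.3% of all genes, and 2 of the 27 lay below the array median. Zcchc11 and Zcchc6 on the list are older symbols of Tut4 and Tut7, which were measured. Tut4, which adds uridines to RNA ends and is known to act on the let-7 precursor, measured 4.98 and 5.25 in KO, against 3.47 and 3.47 in WT, a difference of 1.65 ± 0.12 (limma adjusted p = 0.000595). Ago2, the slicing Argonaute, measured 7.75 and 7.82 in KO and 7.20 and 7.30 in WT, a difference of 0.54 ± 0.10 (limma adjusted p = 0.0175). Adarb1, an RNA-editing enzyme, measured 6.88 and 7.02 in KO and 7.46 and 7.59 in WT, a difference of -0.57 ± 0.11 (limma adjusted p = 0.0176). Drosha, Dgcr8, Dicer1 and Xpo5 differed by -0.15, 0.28, -0.02 and -0.20. Ago2 lost its call without KO replicate 1, KO replicate 2 or WT replicate 1 (0.0753, 0.0996 and 0.0830), and Adarb1 without KO replicate 1, KO replicate 2 or WT replicate 2 (0.104, 0.0581 and 0.0681).

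Of 27 symbols for the assembly of snoRNA particles, 24 were measured, with 1 higher, 1 lower (8.33%, beside 14.3% of all genes) and a median difference of -0.14. Nhp2l1 on the list is an older symbol of Snu13, which was measured. Nufip1, an assembly factor of box C/D particles, measured 8.36 and 8.10 in KO, against 7.37 and 7.64 in WT, a difference of 0.72 ± 0.14 (limma adjusted p = 0.0209). Ruvbl1, an ATPase of the same assembly pathway, measured 4.77 and 4.60 in KO and 5.10 and 5.23 in WT, a difference of -0.48 ± 0.11 (limma adjusted p = 0.0383). Nufip1 lost its call without KO replicate 1 or WT replicate 1 (0.116 and 0.0818), and Ruvbl1 without any 1 of the 4 arrays, at 0.0737 to 0.180. Nonsense-mediated decay, which degrades many Snhg transcripts, had 11 of 15 listed genes measured and 0 past limma's adjusted test, with 3 at an unadjusted p under 0.05 and a median difference of -0.13. Upf2 and Eif4a3, with the smallest p on that list, differed by -0.34 and -0.30.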

How the data were processed

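Per the submitters' processing notes, the authors used RMA under R 2.15.2, and the deposited table holds a log2 value for each probe set on each of 4 Affymetrix arrays. Build and settings: not given in the sources used here. All arrays share 1 distribution with a median of 3.137, so a shift common to most RNAs is not visible. Of 28371 probe sets, 21158 had 1 symbol in the platform annotation, 1881 several and 5332 none; only the first were used. For each gene the probe set with the highest mean was taken, which left 18782 genes and no filter on signal.

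The test of KO against WT was limma 3.58.1 (R 4.3.3), fitted to group alone with moderated variance, two-sided, with Benjamini-Hochberg adjustment over all 18782 genes. There were 2 residual and 4.164 prior degrees of freedom. A gene was called at an adjusted p under 0.05. Differences are KO minus WT. The number of arrays limits the precision. The labels call the arrays biological replicates, each a pool of 2 mice.

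The members, the gene lists and the markers were chosen with earlier results of these data known. Named were all called members, the 3 brightest members of each class, called and brightest members of the microRNA lists, hosts, neighbours under 10 kb on the same strand and genes of 1 seed with them, and of the processing lists the genes with the smallest p. Names, strands and hairpins came from RefSeq tables of GRCm38.p6, in which 368 members were found. The strand of snoRNA genes is not given there, so their hosts were taken by span, whereas same-strand hosts had been planned.

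Alternatives were the replicate number as a block, an intensity trend in the variance, leaving out dim probe sets, the mean over a gene's probe sets, further quantile or median normalisation, a test against a difference of 0.5, and leaving out each array. Same-numbered KO and WT arrays did not deviate together (r = -0.0173 over all genes), so the numbers were not used as pairs.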

Additional observations from a re-analysis of the deposited data

How the results depend on the processing

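The 28 named genes past the test kept their direction in every alternative that fitted them. Further quantile or median normalisation kept all 18 calls among the members. The arrays already share 1 distribution, so these steps could change almost nothing and do not test the calls. Of the 40 named genes not past it, 18 with small differences changed sign in at least 1 alternative, among them Mir181a-1, Mir703, Mir7-1, Snhg17 and Snhg20. The median difference of the microRNA genes was -0.0045 without dim probe sets, and that of the snoRNA genes was 0.037 without KO replicate 2. With the replicate number as a block, which is not a known pairing, 17 of the 18 were kept, with 7 microRNA genes higher and 6 lower, 2 Snhg genes higher and 0 snoRNA-particle genes lower. With an intensity trend 17 were kept, with 5 snoRNA genes and 2 Snhg genes higher and 2 microRNA-machinery genes lower. Without dim probe sets 3 microRNA genes were higher, 3 called members were not fitted, and 2 microRNA-machinery genes were lower. With the mean over probe sets 1 microRNA-machinery gene was higher. Against a difference of 0.5, 6 of the 18 were kept (3 microRNA genes higher and 2 lower, 1 Snhg gene higher, 0 snoRNA genes higher and 0 lower), with 1 microRNA-machinery gene higher and 0 lower, 0 snoRNA-particle genes higher and 0 lower, and 498 genes higher and 336 lower in all.

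Leaving out 1 array kept 11 to 13 of the 18 calls. The counts higher in KO were then 3 to 5 microRNA genes, 1 to 4 snoRNA genes, 1 to 2 Snhg genes, 1 to 2 microRNA-machinery genes, 0 to 1 snoRNA-particle genes and 726 to 1227 genes in all. The counts lower were 4 to 6, 1 to 3, 0 to 0, 0 to 1, 0 to 1 and 647 to 1057 in the same order. A lone array was then assumed to vary like the other group. The cause of these changes was not tested, apart from fewer arrays or fewer probe sets in the fit. Background correction was not varied, since the values are already summarised, and 2 arrays a group and signals near the floor limit what can be called.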

Other observations

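Probe sets that carry several symbols had no place in the tests by gene. Of these, 81 held a symbol of the same kinds of gene, and in a limma fit over all probe sets 3 of the 81 were higher in KO and 0 lower at an adjusted p under 0.05, beside 10.1% of all probe sets. Which gene gives the signal of such a probe set cannot be told.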
